A study of Mus musculus with 12 samples.

Results

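The lysosome and granule genes are the genes that the deposited table places in the KEGG pathway Lysosome. A row was a member when its pathway field, split at its separators, held the term Lysosome. The term stood in 124 of the 16234 rows, 2 of these were left out by the choice of members, and 122 genes remained. They fall by function into 16 soluble proteases, 20 glycosidases, 7 sulfatases, 10 lipid, phosphate and nucleic acid hydrolases, 7 activators and enzymes of the mannose 6-phosphate tag, 27 membrane proteins and transporters, 10 subunits of the V-ATPase proton pump, 24 adaptor and clathrin genes, and *Spam1*, a sperm hyaluronidase that had no count in any library.

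RNA was sequenced from bone marrow-derived mast cells (BMMCs), which are mast cells grown from mouse bone marrow in IL-3 and SCF. The 12 libraries form 6 groups of 2 replicates: *Elk4* wild type (WT), heterozygous (HZ) and knockout (KO) cells, each unstimulated or stimulated through the IgE receptor FcϵRI. Stimulated cells were loaded overnight with anti-DNP IgE at 0.5 µg/ml and given the antigen DNP-HSA at 100 ng/ml for 1 h. Whether unstimulated cells also received IgE is not given in the sources used here. The mice were a conventional knockout on C57BL/6N, so every cell type of the animal carried the allele, were 6 to 12 weeks old and of both sexes, and had WT littermates as controls. Cells were cultured for 4 to 8 weeks, and at least 80% carried both CD117 and FcϵRI. The labels do not say whether the 2 replicates of a group came from separate mice or cultures, so the p-values measure only the spread between these libraries, which may be technical.

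Lysosomes degrade proteins, glycans, lipids and nucleic acids with hydrolases that work at the acid pH made by the V-ATPase. Most of these hydrolases receive a mannose 6-phosphate tag in the Golgi, are bound by mannose 6-phosphate receptors, and travel in clathrin-coated carriers that adaptor complexes and GGA proteins load. The secretory granules of mast cells are lysosome-related organelles: they share enzymes such as β-hexosaminidase and membrane proteins such as CD63 and LAMP1 with lysosomes, and store them with histamine, proteases and heparin until FcϵRI is crosslinked. ELK4 is an Ets-family transcription factor that acts downstream of MAPK signalling, and the comparisons ask how these genes differ with stimulation and with *Elk4* genotype.

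Per library, 29697958 to 35531667 reads were counted on genes. The count of *Elk4* did not follow the genotype labels. WT libraries held 2426 and 2740 counts unstimulated and 2322 and 1995 stimulated, against 3238 and 2837, then 2139 and 1883 for HZ. KO libraries held 2613 and 2253, then 1867 and 1971. Such a gene-level count does not resolve which exons the reads came from. The study reports the *Elk4* deletion at the protein level, by western blot of WT, HZ and KO BMMCs. The label of each library stands unchecked here. Of 12 mast cell markers 11 were in the table, and their summed level was 49239 to 60315 CPM (counts normalised to library size) in every library. Single mast cell markers differed more than this sum. Against unstimulated WT on the log2 scale, *Hdc* differed by -2.89 in KO and -0.21 in HZ. *Mcpt4* differed by 0.56 and 1.49, and *Gata2* by -0.31 and 0.14. Other cell types were low: 6 neutrophil, 2 dendritic and 2 B and T cell markers summed to at most 0.269 CPM each, and 3 eosinophil markers to at most 3.57. The 3 basophil markers summed to 465 to 674 CPM, nearly all from *Cd200r3*, and the 4 erythroid and megakaryocyte markers to 1511 to 2421, nearly all from *Itga2b*. The 12 macrophage and monocyte markers summed to 131 to 134 CPM in unstimulated WT, 92.2 to 95.1 in stimulated WT, 82.0 to 83.3 and 51.8 to 52.9 in unstimulated and stimulated HZ, and 65.4 to 68.0 and 52.2 to 59.5 in unstimulated and stimulated KO. *Cx3cr1* made up most of this sum, and not every marker followed it. Lyz2 was higher than in WT, by 1.35 in unstimulated and 0.86 in stimulated KO and by 1.26 and 0.63 in HZ on the log2 scale, Cd14 was higher in stimulated KO (1.25), and Adgre1 in unstimulated HZ (0.72). C1qa, C1qb, C1qc, Mrc1 and Csf1r were each at 0 in at least 1 library and reached at most 0.774 CPM, and the part of this list in the results was not tested. The unstimulated HZ libraries stood apart across the transcriptome: both lay above the other 10 libraries in 17.2% and below them in 16.5% of the 12208 genes tested, against 4.59% to 7.81% for any other group and direction. Fewer cells of a type and less RNA per cell cannot be told apart in such bulk samples.

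The lysosome genes were well expressed in BMMCs. Per length and depth, their median level was 17.9 FPKM (fragments scaled to gene length and library total) against 3.15 FPKM over all genes of the table, and 101 of the 122 reached a mean of 1 FPKM. Together they took 1.81% to 2.25% of all counts. *Ctsd*, the main aspartic protease of lysosomes, was the highest at a mean of 2052 FPKM and took 15.4% to 23.1% of the members' counts. The granule tetraspanin *Cd63* followed at 1119 FPKM, then *Laptm5*, a lysosomal membrane protein of blood cells, at 765, and *Gm2a*, which presents ganglioside GM2 to β-hexosaminidase, at 202. Among the highest members of the other roles were the pump subunits *Atp6v0b* (124 FPKM) and *Atp6v0d1* (116), the clathrin chains *Cltc* (136) and *Clta* (61.4), the glycosidases *Hexa* (133) and *Man2b1* (88.2), the acid nuclease *Dnase2a* (80.9) and the thioesterase *Ppt1* (36.9), and the sulfatase *Ids* (41.1). *Psap*, the precursor of the saposins that lift lipids to their enzymes, followed *Gm2a* among the activators at 123, and the protease *Ctsb* had 167. At the other end, 11 members were too low to test: *Laptm4b*, *Ctsk*, *Acp5*, *Slc11a1*, *Ap1m2*, *Entpd4*, *Ctsh*, *Lamp3*, *Ctsw*, *Atp6v0a4* and *Spam1*, none of which had more than 29 counts in a library. They include *Ctsk*, the collagenase of osteoclasts, *Acp5*, another osteoclast enzyme, and *Lamp3*, a mark of mature dendritic cells.

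Many lysosomal genes carry in their promoters the palindrome TCACGTGA, the core of the CLEAR element bound by the MiT factors TFEB, TFE3 and MITF, of which MITF is also a main regulator of the mast cell lineage. RefSeq promoter windows of 250 bases before to 50 bases after a gene's start (build GRCm38.p6, matched by NCBI gene number) were at hand for 96 of the 122 members and for 12777 genes of the table. On either strand, TCACGTGA stood in 10 of the 96 members (10.4%) and in 1.80% of all matched genes, and its inner CACGTG in 24 members (25.0%) against 10.6%. The Ets motif CCGGAAGT stood in 5 members (5.21%) against 7.54% of all matched genes. A match is a description of the letters and not a binding site. The members that hold the full palindrome are shown as 30 bases around it, 5′ to 3′ on the gene's strand with the palindrome in capitals. Coordinates are those of GRCm38.p6, while the labels name GRCm39 for the counts:
Ctsd, chr7:142387908-142387937, strand -: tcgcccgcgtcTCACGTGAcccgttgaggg
Ctsa, chr2:164833749-164833778, strand +: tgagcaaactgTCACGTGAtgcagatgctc
Gla, chrX:134601215-134601244, strand -: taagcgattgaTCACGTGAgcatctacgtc
Atp6v0d1, chr8:105566050-105566079, strand -: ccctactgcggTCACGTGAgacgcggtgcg
Cd164, chr10:41519401-41519430, strand +: cgccgggctgcTCACGTGAccggcgcgcgc
Cln3, chr7:126583340-126583369, strand -: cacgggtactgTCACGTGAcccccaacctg
Mcoln1, chr8:3500462-3500491, strand +: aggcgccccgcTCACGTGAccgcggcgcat
Gnptg, chr17:25240120-25240149, strand -: ccggctgtcacTCACGTGAccgtgagaccc
Igf2r, chr17:12769737-12769766, strand -: gaacgaggacgTCACGTGAgcaggaggcgg
Sumf1, chr6:108185577-108185606, strand -: agcaccacaggTCACGTGAtctccatgggt
These genes come from several of the roles, with no sulfatase and no adaptor or clathrin gene among them. They are the proteases *Ctsd* and *Ctsa*, the α-galactosidase *Gla*, the pump subunit *Atp6v0d1*, the sialomucin *Cd164*, the membrane proteins *Cln3* and *Mcoln1*, the latter a calcium channel, and the sorting and maturation genes *Gnptg*, *Igf2r* and *Sumf1*. The motif began 99 bases before the start of *Ctsd*, 13 before that of *Ctsa*, 4 before that of *Atp6v0d1* and 228 before that of *Gla*. Of the MiT genes, *Mitf* held 130 to 156 CPM across the libraries, *Tfe3* 39.2 to 60.5 and *Tfeb* 0.863 to 2.40. *Tfe3* was lower in stimulated KO (-0.25, edgeR adjusted p = 0.00154) and HZ (-0.34, edgeR adjusted p = 4.25e-05) than in stimulated WT, and *Mitf* was slightly lower in unstimulated KO (-0.12, edgeR adjusted p = 0.0156).

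The first comparison asks how FcϵRI stimulation changed the lysosome genes in WT cells. Of the 111 members tested, 39 passed as higher and 15 as lower at an adjusted p below 0.05 (quasi-likelihood test of edgeR, adjusted by Benjamini-Hochberg over all genes), against 22.4% and 22.9% of all genes. With the study's threshold of a log2 fold change of 1 added, 3 members were called higher and 1 lower, where 3.71% and 3.06% of all genes were. The median log2 fold change was 0.07 over the members and -0.01 over all genes. These values are relative to TMM scaling, which assumes that most genes do not change: with library totals the median of all genes moved by -0.31 in WT, -0.29 in KO and -0.23 in HZ, and the WT split became 7 higher and 78 lower, so that 25 of the 39 rises turned negative. Only changes that held under both scalings are therefore described as directions on stimulation. Library totals moved values down, so this screened the rises, while a fall with TMM could hardly fail it. In this sense 6 members rose in every genotype: *Ctsc*, *Ctsl*, *M6pr*, *Cltc*, *Ap4b1* and *Gla*. The share of all genes with such a shared rise was not computed.

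*Ctsc*, cathepsin C, removes dipeptides from granule serine proteases and so activates them. Unstimulated cells held 327 and 321 CPM in WT, 295 and 300.1 in KO and 344 and 345 in HZ. Stimulated cells held 1497 and 1464, 1144 and 1129 and 1177 and 1153. No stimulated library overlapped an unstimulated one, and the stimulated WT libraries were above those of KO and HZ. The rise was 4.57-fold in WT, 3.82-fold in KO and 3.38-fold in HZ. On the log2 scale this was 2.19 ± 0.027 (SE, edgeR adjusted p = 6.04e-48), 1.93 ± 0.027 (SE, edgeR adjusted p = 9.67e-46) and 1.76 ± 0.027 (SE, edgeR adjusted p = 3.9e-44). Its promoter window held no CACGTG. *Ctsl*, cathepsin L, rose from a very low level: 43 and 36 counts in unstimulated and 373 and 333 in stimulated WT, with the same order in both other genotypes. The log2 change was 3.35 ± 0.21 (SE, edgeR adjusted p = 1.33e-18) in WT, 2.41 ± 0.19 (SE, edgeR adjusted p = 5.25e-15) in KO and 3.55 ± 0.21 (SE, edgeR adjusted p = 1.77e-19) in HZ. Even after this rise *Ctsl* had a mean of only 3.00 FPKM in stimulated WT, against 120.0 for *Ctsc*.

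*M6pr*, the cation-dependent mannose 6-phosphate receptor that carries hydrolases out of the Golgi, rose in every genotype. Its level went from 274 and 262 to 541 and 553 CPM in WT, from 279 and 279.8 to 548 and 561 in KO, and from 248 and 249.8 to 511 and 536 in HZ. The changes of 1.03, 0.99 and 1.07 on the log2 scale were close to each other, with an SE of 0.031, 0.031 and 0.031 (edgeR adjusted p = 2.73e-31, 1.15e-30 and 4.68e-32). The KO value was just short of the fold threshold and the other 2 just past it. *Cltc*, the clathrin heavy chain, rose by 0.59, 0.53 and 0.40 in WT, KO and HZ. *Ap4b1*, a large subunit of the AP-4 adaptor, rose by 0.77, 0.90 and 0.73, and *Gla*, which cleaves terminal α-galactose, by 0.56, 0.60 and 0.61. *Lamp2*, a main glycoprotein of the lysosomal membrane, passed under both scalings in WT (0.53) and KO (0.57), while in HZ its value was 0.22 with TMM and -0.01 with library totals.

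**Figure D1:**
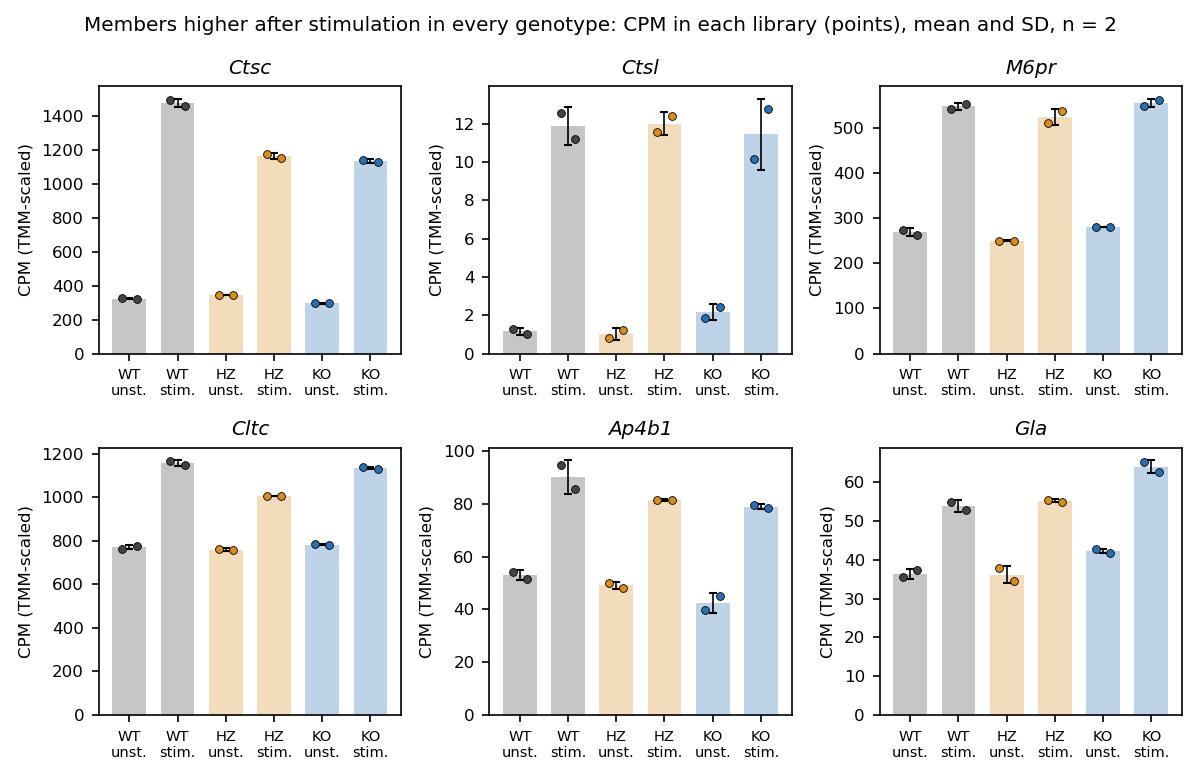
CPM (TMM-scaled counts) of the 6 members that were higher after stimulation in WT, HZ and KO under both scalings. Points are libraries, bars are group means and error bars are SD (n = 2). In each panel the stimulated libraries of a genotype lie above its unstimulated ones, most widely for *Ctsl* and *Ctsc*.

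Falls shared by all genotypes were smaller than the rises of *Ctsc* and *Ctsl*. Under both scalings 9 members fell in every genotype: the α-mannosidase *Man2b1*, the heparan sulfate sulfamidase *Sgsh*, the sulfatide-degrading *Arsa*, the proteases *Ctse* and *Ctsf*, and the carrier genes *Ap1g1*, *Ap4m1*, *Ap3m2* and *Gga3*. Library totals moved values down, so that scaling did not test these falls. The share of all genes with such a shared fall was not computed. *Gga3*, which binds tagged receptors at the Golgi, went from 38.7 and 41.7 to 23.8 and 23.4 CPM in WT and from 38.6 and 39.1 to 30.1 and 27.7 in KO, a log2 change of -0.77 ± 0.079 (SE, edgeR adjusted p = 1.79e-11) and -0.43 ± 0.077 (SE, edgeR adjusted p = 1.06e-05). The other 8 had values from -0.59 (*Ctsf* in WT) to -0.12 (*Ap1g1* in KO) in these genotypes. Falls in HZ reached -1.64 (*Ctsf*), the lowest value of any member there. The sulfatases as a group had 0 members higher and 2 of 7 lower in WT, with a median of -0.21, and the V-ATPase had 5 of 9 higher and 0 lower, where 22.4% of all genes passed as higher and 22.9% as lower. The V-ATPase count is one that rests on TMM scaling, since none of its members is among the rises under both scalings in WT or KO.

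Low or uneven genes made up the calls in the lower direction in WT and KO. *Entpd4b* was the member called lower in WT, with 18 and 149 counts in the 2 unstimulated libraries and 16 and 24 in the stimulated ones. It also had 29 and 208 counts in stimulated HZ and is a near copy of *Entpd4*, with which it may share reads, so no direction is given for it. Without replicate 2 of unstimulated WT or replicate 1 of stimulated WT 0 members were called lower in WT, and without replicate 1 of unstimulated WT 2 were. In KO 29 members passed as higher (20.4% of all genes did) and 23 as lower (20.5%), 2 were called higher (3.73%) and 2 lower (2.88%). The 23 became 12 to 14 without any 1 of the 4 KO libraries, 15 with DESeq2, and 73 with library totals. The 2 called lower were the low genes *Ctss* and *Lgmn*: *Ctss* had 16 and 28 counts in unstimulated and 2 and 3 in stimulated KO, a ratio of 6.83 with a 95% counting interval of 2.71 to 22.1 on the depth scale. Without replicate 1 of stimulated KO neither was called, and without either library of unstimulated KO 1 was.

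In HZ more members passed as lower than as higher. Here 32 members passed as higher (32.9% of all genes did) and 47 as lower (31.6%), 7 were called higher (7.02%) and 5 lower (7.28%), and the median was -0.09 against -0.00 over all genes. All 47 lower members also passed as lower under library totals, and 16 of the 32 higher ones as higher. Library totals moved values down, so that scaling tested the rises and not the falls. Besides *Ctsl*, *Ctsc* and *M6pr*, the called rises were *Cd68*, *Galns*, *Arsb* and *Entpd4b*, and the called falls were *Ctsf*, *Man2b1*, *Ctse*, *Sgsh* and *Gga3*. With TMM scaling 10 members passed as higher in WT and lower in HZ, among them *Ctsd*, *Laptm5*, *Lamp1*, *Tpp1* and *Ctsa*, but with library totals the WT values were -0.25 for *Ctsd*, -0.21 for *Laptm5* and -0.16 for *Lamp1*. The share of all genes with this pattern was not computed.

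The difference between genotypes in the response was tested as an interaction, which does not depend on a shift shared by all stimulated libraries. Between HZ and WT 43 of 111 members (38.7%) responded lower, where 18.6% of all genes did, and 11 (9.91%) higher, where 19.9% did. With library totals these counts were 35 and 16, and for KO below they were 8 and 4. The members' median interaction was -0.13, against 0.01 over all genes. By role, 8 of 13 proteases, 9 of 20 glycosidases, 8 of 23 membrane proteins and transporters, 4 of 9 lipid, phosphate and nucleic acid hydrolases, 3 of 9 V-ATPase subunits and 5 of 23 adaptor and clathrin genes were among the 43. Between KO and WT 12 members (10.8%) responded lower, where 3.83% of all genes did, and 4 (3.60%) higher, where 5.44% did. The 12 were *Ctsd*, *Cd63*, *Gm2a*, *Ctsb*, *Npc2*, *Ctsc*, *Ctsa*, *Cd164*, *Gaa*, *Gga2*, *Nagpa* and *Ctsl*. The count fell to 5 without replicate 2 of unstimulated KO, to 6 without replicate 1 of stimulated WT and to 7 without replicate 1 of stimulated KO. Without either of these 2 KO libraries *Cd63* no longer passed (-0.11 and -0.12). Both interactions use the same WT libraries, so the genes they share are no separate evidence.

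*Ctsc* responded less in KO and in HZ than in WT. On the log2 scale its response differed by -0.26 ± 0.037 (SE, edgeR adjusted p = 8.52e-07) in KO and by -0.43 ± 0.037 (SE, edgeR adjusted p = 9.57e-14) in HZ. *Ctsl* also responded less in KO, with an interaction of -0.94 ± 0.30 (SE, edgeR adjusted p = 0.0341), from unstimulated levels of 70 and 87 counts in KO against 43 and 36 in WT, and the stimulated levels of KO and WT overlapped. This call was lost without any 1 of 4 libraries (replicate 2 of unstimulated WT, replicate 1 of stimulated WT, replicate 2 of unstimulated KO and replicate 1 of stimulated KO), where its values lay between -0.86 and -0.74. *Litaf*, an endosomal membrane protein, responded more in KO (0.37, edgeR adjusted p = 0.00064) and in HZ (0.62, edgeR adjusted p = 4.59e-09), from lower unstimulated levels.

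**Figure D2:**
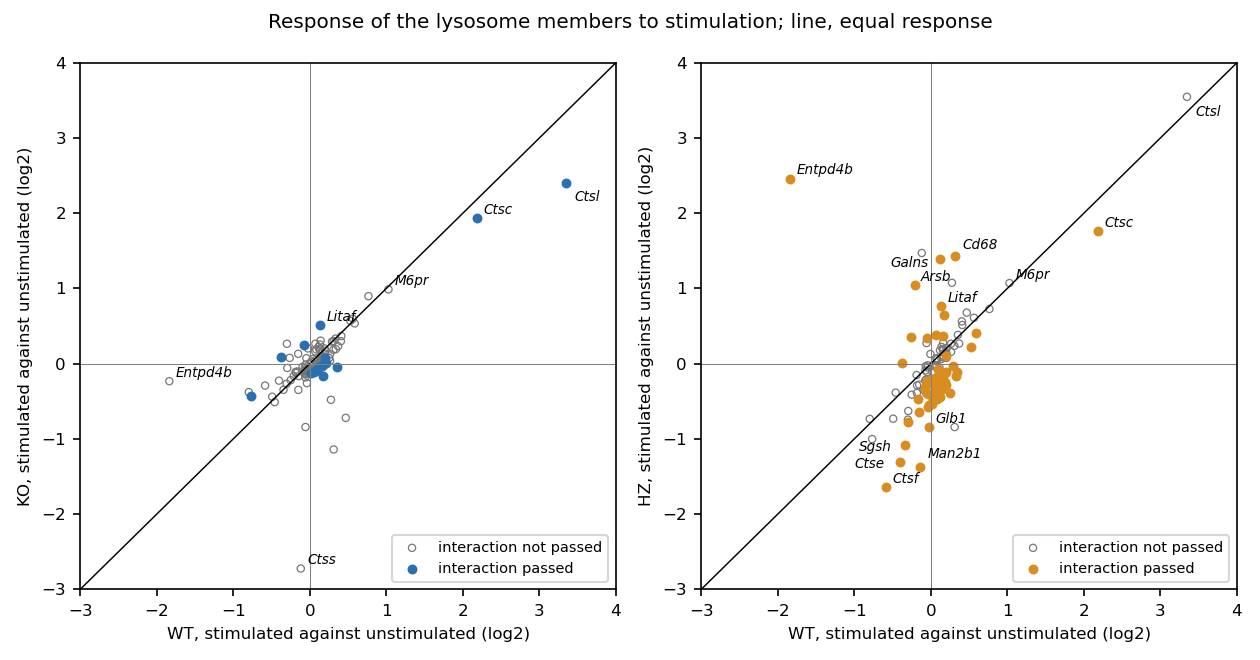
Log2 fold change on stimulation of the 111 tested members in WT (horizontal axes) against KO (left) and HZ (right), on log2 axes. Each point is a member. Filled points passed the interaction test, and the line marks equal response. Among the filled KO points *Ctsl* and *Ctsc* lie below the line, and open KO points far from it, such as *Ctss* and *Entpd4b*, did not pass. Many HZ points lie below the line, and *Cd68*, *Galns* and *Arsb* lie above it.

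The next comparison asks which lysosome genes differed between KO and WT cells, at rest and after stimulation. In unstimulated KO against WT 33 members passed as higher (29.7%, where 22.9% of all genes did) and 23 as lower (20.7%, where 21.7% did), and 55 did not pass. With the fold threshold 1 was called higher (2.64% of all genes) and 4 lower (4.87%). In stimulated KO against WT 28 passed as higher (21.2% of all genes did) and 24 as lower (19.2%). There the study's threshold was a fold of 1.5 or 0.66, and 4 members were called higher (5.44%) and 5 lower (7.22%). The median over the members was 0.02 in unstimulated and -0.00 in stimulated cells, and over all genes it was 0.02 in each. The 2 states share no library. Across the 2 states 23 members (20.7%) passed as higher in both, where 14.2% of all genes did, 15 (13.5%) as lower in both, where 14.1% did, and 0 passed in opposite directions, where 0.991% did. Without replicate 2 of unstimulated KO, 15 members passed as lower at rest.

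The genes higher in KO in both states included *Ctsd* and *Cd63*, the members of highest level. *Laptm5*, the next in level, did not pass in unstimulated KO (0.03) and was slightly lower in stimulated KO (-0.07, edgeR adjusted p = 0.0262). *Cd63*, which sits in the granule membrane and reaches the surface on degranulation, had 1083 and 1040.0 CPM in unstimulated WT, 1512 and 1569.7 in unstimulated HZ and 1848 and 1911 in unstimulated KO. After stimulation KO held 1955 and 1986, HZ 1639 and 1674 and WT 1217 and 1225. WT was lowest, HZ intermediate and KO highest in both states, with no overlap between genotypes. The difference between KO and WT was 0.82 ± 0.025 (SE, edgeR adjusted p = 6.77e-31) unstimulated and 0.69 ± 0.025 (SE, edgeR adjusted p = 7.77e-28) stimulated.

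*Ctsd* showed the same separation of KO from WT, with 4496 and 4566 CPM in unstimulated KO against 3099.5 and 2995 in WT, and 4169 and 4215 against 3185 and 3169 after stimulation. Its log2 differences were 0.57 ± 0.020 (SE, edgeR adjusted p = 1.61e-28) and 0.40 ± 0.020 (SE, edgeR adjusted p = 2.26e-22). The cysteine protease *Ctsb* was higher in KO by 0.46 and 0.26 in unstimulated and stimulated cells (edgeR adjusted p = 1.85e-17 and 1.81e-09). *Lamp1*, whose protein marks degranulated cells when it appears at the surface, was at 269 and 264 CPM in unstimulated KO and 219 and 216 in WT. It was higher by 0.30 and 0.24 in the 2 states (edgeR adjusted p = 1.48e-10 and 4.29e-08). In the same direction in both states were the lipases *Lipa* (0.60 and 0.46) and *Pla2g15* (0.53 and 0.33), the sterol carrier *Npc2*, the glycosidases *Glb1* and *Gla*, and the pump subunits *Atp6v0b* and *Atp6v0d1*.

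Cathepsin E (*Ctse*), an aspartic protease of endosomes, was higher in KO by a larger factor. It had 18.3 and 16.2 CPM in unstimulated WT and 35.0 and 33.4 in KO, and after stimulation it had 13.6 and 12.5 in WT and 30.3 and 28.2 in KO. The groups did not overlap, and the log2 differences were 0.99 ± 0.084 (SE, edgeR adjusted p = 6.16e-14) and 1.17 ± 0.091 (SE, edgeR adjusted p = 4.07e-15). In HZ *Ctse* was higher than in WT by 1.54 unstimulated, more than in KO, and by 0.64 stimulated (edgeR adjusted p = 4.22e-21 and 2.09e-07). *Lgmn*, the asparaginyl endopeptidase that processes other lysosomal proteases, was near the detection limit in WT, with 7 and 4 counts unstimulated and 7 and 5 stimulated. Unstimulated KO had 103 and 94 counts and stimulated KO 36 and 33, and HZ had 44 and 34 unstimulated and 24 and 16 stimulated. It fell short of the minimum of 100 counts for named genes and was chosen after its values were seen. Its KO difference was 4.03 ± 0.55 (SE, edgeR adjusted p = 3.25e-08) unstimulated and 2.57 ± 0.58 (SE, edgeR adjusted p = 0.000274) stimulated. The small adaptor subunit *Ap1s2* was called higher in stimulated KO (0.80, edgeR adjusted p = 0.00391), a call lost without replicate 2 of stimulated WT (0.56) or replicate 1 of stimulated KO (0.67).

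Other members were lower in KO in both states. *Gm2a*, the fourth most abundant member, stood at 1251 and 1235 CPM in unstimulated WT, 865 and 888 in unstimulated HZ and 581 and 593 in unstimulated KO, while after stimulation WT held 1271 and 1248, HZ 592 and 612 and KO 529.7 and 549. In both states WT was highest and KO lowest, with no overlap between genotypes. The log2 difference of KO from WT was -1.08 ± 0.027 (SE, edgeR adjusted p = 2.3e-34) unstimulated and -1.22 ± 0.027 (SE, edgeR adjusted p = 3.08e-36) stimulated. That of HZ from WT was -0.50 ± 0.026 (SE, edgeR adjusted p = 1.31e-21) and -1.06 ± 0.027 (SE, edgeR adjusted p = 1.57e-33).

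*Atp6v0d2*, a tissue-restricted isoform of the d subunit of the V-ATPase, had the same order: 38.2 and 33.4 CPM in unstimulated WT, 24.1 and 23.7 in unstimulated HZ and 9.17 and 9.19 in unstimulated KO. After stimulation WT held 43.6 and 41.6, HZ 18.4 and 18.0 and KO 9.02 and 10.3. The KO level was 0.257 and 0.227 of that of WT, on the log2 scale -1.96 ± 0.095 (SE, edgeR adjusted p = 1.42e-22) and -2.14 ± 0.098 (SE, edgeR adjusted p = 1.69e-23). The common isoform *Atp6v0d1* was higher in KO, by 0.18 and 0.19 (edgeR adjusted p = 4.68e-05 and 1.77e-05). Its level was far higher, at a mean of 133 FPKM in unstimulated KO against 2.49 for *Atp6v0d2*.

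The sulfatase *Arsb*, which removes sulfate from dermatan and chondroitin sulfate, was low in all libraries and lower in HZ and KO. Before stimulation WT held 340 and 325 counts, HZ 67 and 56 and KO 77 and 59. After stimulation WT held 273 and 229, HZ 118 and 116 and KO 39 and 55. No HZ or KO library reached a WT library, and the differences of KO were -2.39 ± 0.21 (SE, edgeR adjusted p = 1.47e-13) and -2.34 ± 0.22 (SE, edgeR adjusted p = 2.27e-12). The heparan sulfate enzyme *Sgsh*, by contrast, was higher in KO by 0.35 and 0.35, so the sulfatases did not move together. In unstimulated KO 1 of 7 passed as higher and 2 as lower, where 22.9% and 21.7% of all genes did. In stimulated KO 2 and 3 did, where 21.2% and 19.2% of all genes did. The summed level of the macrophage and monocyte markers, mostly *Cx3cr1*, was lower in KO and HZ than in WT in both states, while Lyz2 was higher in all 4 comparisons, as given above. The part of these markers in these differences was not tested.

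*Hexa*, which encodes the α chain of β-hexosaminidase, the enzyme whose release is the usual measure of degranulation, differed little. It lay between 248 and 289 CPM in all 12 libraries, and its difference of 0.10 in unstimulated KO (0.036 SE, edgeR adjusted p = 0.0209) was lost under DESeq2, library totals and limma, and without replicate 2 of unstimulated WT (0.04) or KO (0.08).

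By role, the proteases had 6 of 13 members higher and 3 lower in unstimulated KO, the glycosidases 5 and 6 of 20, the lipid, phosphate and nucleic acid hydrolases 3 and 0 of 9, the activators and tag enzymes 1 and 1 of 7, the membrane proteins and transporters 9 and 3 of 23, the V-ATPase 2 and 3 of 9, and the adaptors and clathrin 6 and 5 of 23. In stimulated KO the counts higher and lower were 4 and 4 for proteases, 4 and 7 for glycosidases, 2 and 0 for the lipid, phosphate and nucleic acid hydrolases, 1 and 3 for activators, 6 and 2 for membrane proteins, 2 and 2 for the V-ATPase, and 7 and 3 for adaptors. Over all genes tested, 22.9% passed as higher and 21.7% as lower in unstimulated KO, and 21.2% and 19.2% in stimulated KO. Whether any role differed from these shares was not tested. Of the 10 members with TCACGTGA, 5 were higher and 0 lower in unstimulated KO (*Atp6v0d1*, *Cd164*, *Ctsa*, *Ctsd* and *Gla*), and 3 were higher and 0 lower in stimulated KO (*Atp6v0d1*, *Ctsd* and *Gla*). Of the 214 genes tested with this palindrome, 26.2% were higher and 18.2% lower in unstimulated KO, and 21.0% and 17.3% in stimulated KO. In HZ 3 of these members were higher and 1 lower before stimulation, and 1 and 2 after it. Of the 214 genes, 29.0% were higher and 26.2% lower in unstimulated HZ, and 17.8% and 11.7% in stimulated HZ. In KO 0 of these members responded higher and 3 lower, where 3.27% and 5.14% of the 214 genes did. In HZ 1 responded higher and 3 lower, where 20.6% and 21.0% did. The single call of a higher level in unstimulated KO, *Lgmn*, became 3 calls without replicate 1 of unstimulated WT and 2 without either library of unstimulated KO. In stimulated KO *Ctss*, a cysteine protease of antigen-presenting cells, was also called lower, with 2 and 3 counts against 26 and 22 in WT, a ratio of 9.13 on the depth scale (95% counting interval 3.65 to 29.4). The hyaluronidase *Hyal2* was called lower there at 1.22 and 1.74 CPM against 2.12 and 3.56.

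**Figure D3:**
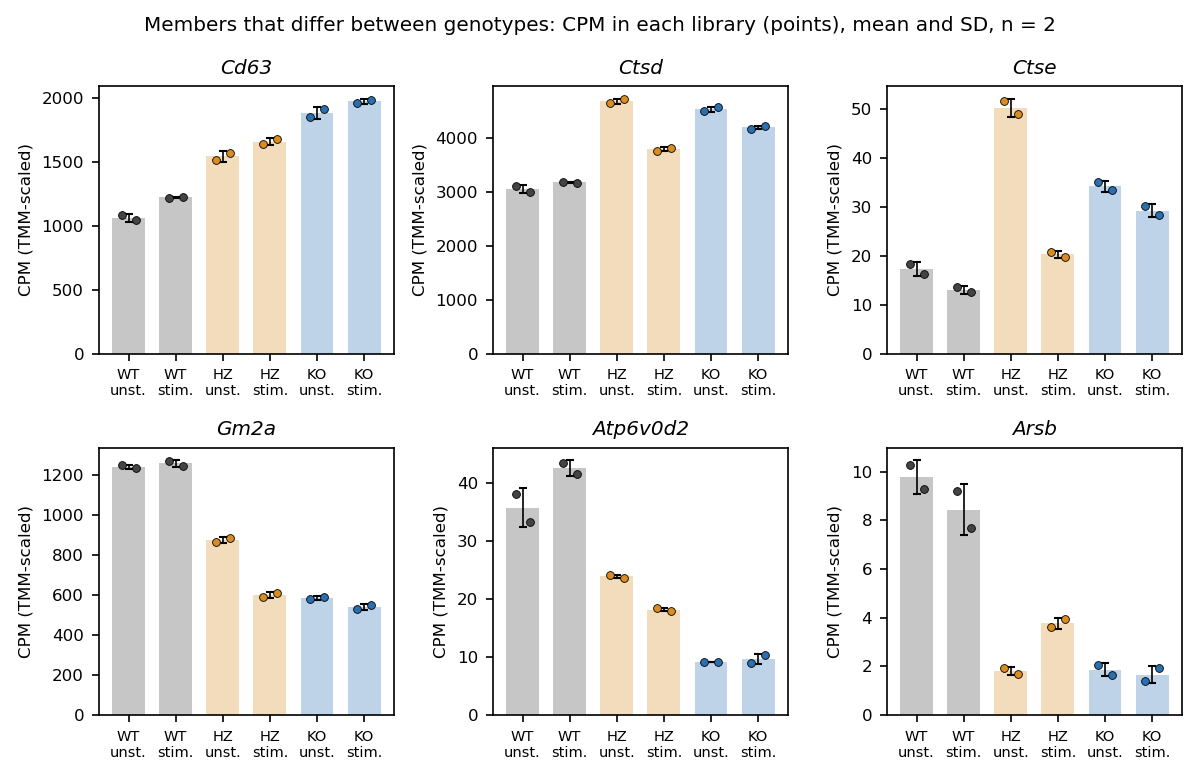
CPM (TMM-scaled counts) of members that differed between KO and WT, by genotype and state. Points are libraries, bars are group means and error bars are SD (n = 2). *Cd63*, *Ctse* and *Ctsd* stand higher in KO than in WT in both states, and *Gm2a*, *Atp6v0d2* and *Arsb* lower.

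HZ cells carry 1 WT allele, and the comparison with WT asks whether the same genes differed between HZ and WT cells. In unstimulated HZ 47 members passed as higher (42.3%, where 25.4% of all genes did) and 20 as lower (18.0%, where 26.0% did), and 2 were called higher (3.83%) and 4 lower (5.32%). After stimulation 15 passed as higher (13.5%, where 18.4% did) and 33 as lower (29.7%, where 16.5% did), and 3 were called higher (3.56%) and 4 lower (4.33%). The median went from 0.09 to -0.01. With library totals 38 members passed as higher and 27 as lower in unstimulated HZ, and 19 and 25 in stimulated HZ. Under that scaling the medians were 0.04 and 0.02. The 15 became 8 without replicate 1 of stimulated HZ, and the 33 became 21 without replicate 1 of stimulated WT. Passing in the same direction in both states were 9 members higher and 9 lower (8.11% each, where 8.13% and 8.12% of all genes did), while 11 (9.91%, where 3.22% did) were higher at rest and lower after stimulation and 4 (3.60%, where 4.38% did) the reverse. The KO and HZ comparisons use the same WT libraries, so their values are given side by side only. In unstimulated cells *Cd63* differed by 0.82 in KO and 0.54 in HZ, *Ctsd* by 0.57 and 0.62, *Arsb* by -2.39 and -2.43, and *Lgmn* by 4.03 and 2.80. In stimulated cells they differed by 0.69 and 0.44, 0.40 and 0.25, -2.34 and -1.17, and 2.57 and 1.64.

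**Figure D4:**
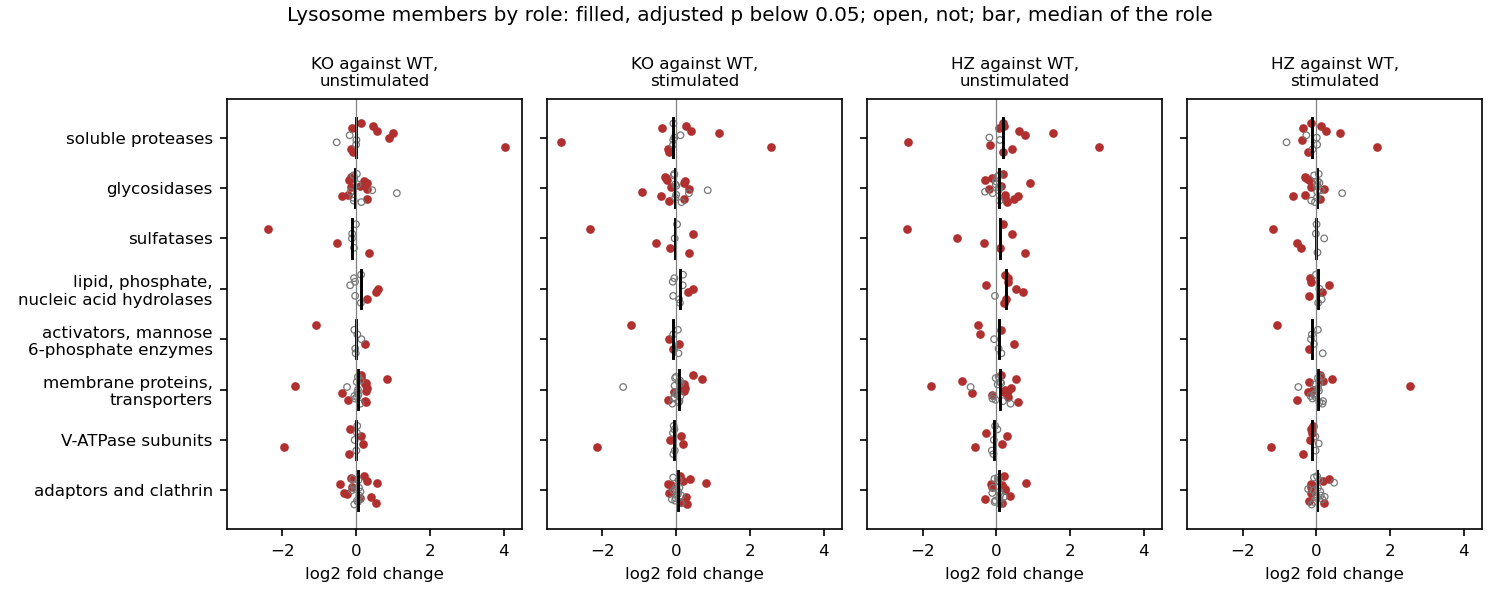
Log2 fold change of KO against WT and of HZ against WT for the 111 tested members, by role, in unstimulated and stimulated cells. Each point is a member, filled where it passed the test, and black bars are role medians. Roles hold members on both sides of 0, and in unstimulated KO the highest point is *Lgmn* (4.03) and the lowest *Arsb* (-2.39).

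Several members with a high level in unstimulated HZ were much closer to WT, or below it, once stimulated. *Man2b1*, the lysosomal α-mannosidase, stood at 697 and 700.5 CPM in unstimulated HZ against 461 and 466 in WT and 354 and 353 in KO. After stimulation it stood at 276 and 263 in HZ, 415 and 424 in WT and 310.1 and 320.5 in KO. HZ was thus the highest genotype before and the lowest after, without overlap, and the response differed from that of WT by -1.23 ± 0.042 (SE, edgeR adjusted p = 4.53e-28). *Glb1*, the lysosomal β-galactosidase, had 248 and 259 CPM in unstimulated HZ and 138 and 131 in WT, but after stimulation 139 and 143 in HZ and 129.7 and 136 in WT (interaction -0.83, edgeR adjusted p = 8.83e-17). *Ctsf*, a cysteine protease, had 26.4 and 24.5 CPM in unstimulated and 7.86 and 8.42 in stimulated HZ. In WT it had 14.7 and 14.7 unstimulated and 9.83 and 9.77 stimulated. Its interaction was -1.06 ± 0.16 (SE, edgeR adjusted p = 6.97e-07), that of *Ctse* -0.90 ± 0.13 (SE, edgeR adjusted p = 6.58e-08) and that of *Sgsh* -0.73 ± 0.080 (SE, edgeR adjusted p = 1.34e-10).

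The opposite order held for *Cd68*, *Galns* and *Arsb*. *Cd68*, a glycoprotein of late endosomes and lysosomes that is widely used as a macrophage marker, had 20.7 and 20.3 CPM in unstimulated HZ, below the 41.3 and 36.9 of WT and the 40.7 and 43.9 of KO. After stimulation it had 56.6 and 54.3 in HZ, 49.2 and 47.7 in WT and 50.5 and 53.7 in KO, with HZ highest. Its response was larger in HZ than in WT by 1.13 ± 0.099 (SE, edgeR adjusted p = 2.93e-13), while the summed macrophage and monocyte markers, mostly *Cx3cr1*, were lower in stimulated than in unstimulated HZ. Cd14 of that list rose on stimulation in HZ by 2.91, in WT by 1.46 and in KO by 3.09, and the part of these cells was not tested. *Galns*, the N-acetylgalactosamine 6-sulfatase, had 6.97 and 6.88 CPM in unstimulated and 19.4 and 16.9 in stimulated HZ. In WT it had 14.7 and 14.1 unstimulated and 15.1 and 16.2 stimulated, an interaction of 1.27 ± 0.16 (SE, edgeR adjusted p = 9.05e-09). For *Arsb* the interaction was 1.26 ± 0.29 (SE, edgeR adjusted p = 0.000456), from 1.93 and 1.70 to 3.60 and 3.92 CPM. The calls of a lower level in unstimulated HZ were *Arsb*, *Galns*, *Ctss* and *Entpd4b*, and without replicate 1 of unstimulated HZ 2 members were called lower. *Entpd4b* was also called higher in stimulated HZ, a call that rests on replicate 2: without it the log2 difference from WT was 0.39 and no longer passed.

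The unstimulated HZ libraries were the ones that stood apart, as across the whole transcriptome. Both lay above the other 10 libraries in 35 of the 111 members (31.5%, against 17.2% of all genes) and below them in 15 (13.5%, against 16.5%). Those above included *Ctsd*, *Laptm5*, *Psap*, *Man2b1*, *Glb1*, *Napsa*, *Sgsh*, *Ctse* and *Ctsf*. Those below included *M6pr*, *Ctsz*, *Cd68*, *Litaf*, *Galns* and *Cltb*. Unstimulated WT lay above all others in 2 members (1.80%, against 7.43%) and below in 15 (13.5%, against 7.65%), and stimulated WT above in 12 (10.8%, against 7.81%) and below in 4 (3.60%, against 7.31%). Every HZ response and every unstimulated HZ value above rests on these 2 libraries, and no other unstimulated HZ library is at hand to compare.

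**Figure D5:**
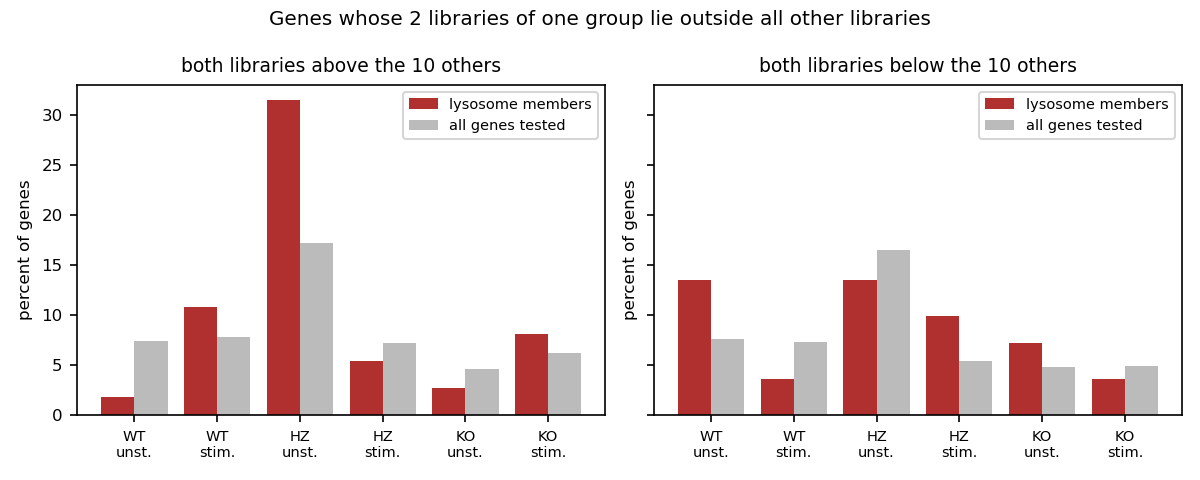
Percent of the 111 tested lysosome members and of all 12208 tested genes for which both libraries of a group lie above, or below, the other 10 libraries. Unstimulated HZ has the highest bars for members above (31.5%) and for all genes (17.2% above and 16.5% below).

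Not every lysosome gene moved. In none of the 9 comparisons did *Ap1m1*, *Fuca1*, *Sumf1*, *Ap3s2*, *Hyal3*, *Sort1*, *Hyal1* or *Igf2r* pass. The share of all genes that passed in none was not computed. *Ap1m1*, the medium chain of the AP-1 adaptor, is the most abundant of the 8 at 49.0 FPKM, and its log2 changes stayed between -0.07 and 0.08. *Hyal3*, *Sort1*, *Hyal1* and *Igf2r* had at most 98 counts in any library, so that small changes in them could hardly pass. *Igf2r*, the large mannose 6-phosphate receptor, was near 0 at a mean of 0.0554 FPKM with 3 to 32 counts a library, whereas the small receptor *M6pr* stood at 156 FPKM.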

How the data were processed

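RNA-seq of 12 BMMC libraries was deposited as 2 tables, 1 of counts and 1 of FPKM. Per the submitters' processing notes, the authors trimmed reads with fastp, aligned them to GRCm39 with HISAT2 and counted them with HTSeq. Versions and the use of strand are not given in the sources used here. The first holds raw read counts per gene, as deposited by the authors with no normalization, and the other FPKM values that the authors scaled by library totals. No count was changed.

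Genes were kept by edgeR's filterByExpr, which left 12208 of 16234 genes and 111 of 122 members. A quasi-likelihood model (R 4.3.3, edgeR 4.0.16) with TMM scaling was fitted to all 12 libraries in 6 groups. It gave 7 pairwise comparisons and 2 interactions (the response of KO or HZ minus that of WT), and p-values were adjusted over all genes by Benjamini-Hochberg. Passed means an adjusted p below 0.05. Called adds a log2 fold change of at least 1, or between genotypes after stimulation a fold of at least 1.5 or at most 0.66. Interactions have no fold threshold. CPM values are TMM-scaled. Alternatives were DESeq2 1.42.0, library totals, other filters, limma 3.58.1 on log2(FPKM + 1) or log2(FPKM + 0.1), the compared groups only, a replicate block, and leaving out each library. The steps were tested on simulated counts. Intervals cover counting error only.

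Named genes are, in each pairwise comparison and direction, up to 5 called members of largest change with no overlap and at least 100 counts in the higher group, the markers *Hexa*, *Lamp1*, *Lamp2* and *Cd63* among others, the 2 most abundant members of each role, and up to 5 members in each direction of an interaction. Some genes that this rule names are not reported here. Others named were chosen after their values were seen. Members and lists were chosen with earlier results of these data known. Pairs of replicates differed beyond sampling noise (chi-square per degree of freedom of 2.94 to 5.16), so none was counted as a duplicate. Promoter letters were read from RefSeq (GRCm38.p6), and no gene coordinates of GRCm39 were used here.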

Additional observations from a re-analysis of the deposited data

Results flagged for a closer look

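These members were picked out because their response to stimulation differed between genotypes in the interaction test itself (quasi-likelihood test of edgeR, adjusted by Benjamini-Hochberg), taking up to 5 in each direction. All values are differences of log2 fold changes against the response of WT, and both sets use the same WT libraries.

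In HZ the larger responses were those of *Entpd4b* (4.30, adjusted p = 4.46e-05), *Galns* (1.27, adjusted p = 9.05e-09), *Arsb* (1.26, adjusted p = 0.000456), *Cd68* (1.13, adjusted p = 2.93e-13) and *Litaf* (0.62, adjusted p = 4.59e-09). The value of *Entpd4b* was 2.15 and no longer passed without replicate 2 of stimulated HZ (adjusted p = 0.0571) or replicate 2 of unstimulated WT (adjusted p = 0.0752). The smaller responses in HZ were those of *Man2b1* (-1.23, adjusted p = 4.53e-28), *Ctsf* (-1.06, adjusted p = 6.97e-07), *Ctse* (-0.90, adjusted p = 6.58e-08), *Glb1* (-0.83, adjusted p = 8.83e-17) and *Sgsh* (-0.73, adjusted p = 1.34e-10).

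In KO the larger responses were those of *Ap1g2* (0.47, adjusted p = 0.00105), *Litaf* (0.37, adjusted p = 0.00064), *Gga3* (0.34, adjusted p = 0.0414) and *Abca2* (0.32, adjusted p = 5.19e-06). The smaller ones were those of *Ctsl* (-0.94, adjusted p = 0.0341), *Gga2* (-0.40, adjusted p = 0.00267), *Nagpa* (-0.33, adjusted p = 0.0417), *Ctsc* (-0.26, adjusted p = 8.52e-07) and *Ctsb* (-0.20, adjusted p = 0.00102). *Gga3* and *Nagpa* did not pass under DESeq2. Leaving out 1 library ended the call of *Gga3* for 6 of the 8 libraries of the interaction, at values from 0.26 to 0.35, and that of *Nagpa* for 7, at values from -0.35 to -0.23. The call of *Ctsl* ended without any 1 of 4 libraries.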

How the results depend on the processing

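Scaling mattered most for stimulation. With library totals, and with limma on FPKM with either pseudocount or no filter, these values of named genes, which had passed as higher, turned below 0. In WT they were *Cd63* (-0.11), *Ctsb* (-0.10, with limma -0.099 to -0.10), *Ctsd* (-0.25), *Lamp1* (-0.16), *Laptm5* (-0.21) and *Clta* (-0.000442, with limma -0.000493 and -0.000498). In KO they were *Cd63* (-0.22) and *Lamp1* (-0.19), and in HZ *Cd63* (-0.13) and *Lamp2* (-0.0132, with limma -0.0134 and -0.0137). The shift comes from the scaling itself, since FPKM values use library totals. Between genotypes the value of *Entpd4b* turned above 0 without replicate 2 of unstimulated WT, to 0.50 in unstimulated KO and 0.38 in unstimulated HZ, as did its stimulation value in WT (0.32), and none of the 3 passed. Of all other comparisons of a named gene's value with an alternative, 1691 kept their side of the threshold, 114 lost it and 66 gained it. The 1691 and the 66 can include changes of sign in values that had not passed, which were not counted apart.

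Counts of called members moved by over 1.5 times as follows. Without the fold threshold they were 39 higher and 15 lower (stimulated WT), 29 and 23 (KO), 32 and 47 (HZ), 33 and 23 (unstimulated KO against WT), 47 and 20 (unstimulated HZ), 28 and 24 (stimulated KO) and 15 and 33 (stimulated HZ). Members lower after stimulation in WT numbered 0 with DESeq2 and with limma on log2(FPKM + 1) with or without a filter, and 2 with library totals or no filter on low counts. Those lower in KO numbered 0 with at least 10 counts required in every library or with limma on log2(FPKM + 1), and those lower in HZ 8 with library totals. With limma, 3 were higher in stimulated HZ, or 4 with a pseudocount of 0.1. With at least 10 counts 0 were higher in unstimulated KO and 1 in unstimulated HZ. With limma 1 was higher and 1 lower in unstimulated HZ (2 lower with 0.1), 2 higher and 3 lower in stimulated KO, 1 higher in stimulated HZ against WT, and 5 responded lower in KO. Fitting the compared groups alone moved no count by that much. The causes of these moves were not tested.

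Leaving out 1 library at a time gave 3 to 4 higher and 0 to 2 lower on stimulation in WT, 2 to 3 and 0 to 2 in KO, and 5 to 8 and 4 to 5 in HZ. It gave 1 to 3 and 3 to 4 in unstimulated KO against WT, 2 to 3 and 2 to 4 in unstimulated HZ, 3 to 4 and 4 to 5 in stimulated KO, and 2 to 3 and 4 to 5 in stimulated HZ. For the responses it gave 3 to 4 and 5 to 12 in KO, and 9 to 12 and 39 to 46 in HZ. A group left with 1 library was assumed to vary like the others.

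Replicate numbers are shared between groups, and deviations of same-numbered unstimulated and stimulated libraries correlated by -0.03 in WT, 0.08 in HZ and -0.003 in KO over 9192 genes. Such values cannot settle whether the numbers pair the libraries, since noise of single libraries could hide a shared deviation. With a replicate block the KO response had 13 members lower against 12, the HZ response 45 lower against 43, or 44 with the block within genotype, and no other count of called members changed. Members that passed numbered 41 higher and 16 lower on stimulation in WT, 32 and 48 in HZ (33 and 48 within genotype) and 29 and 24 in stimulated KO against WT.

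With 2 libraries a group, small differences depend on the spread shared across genes, members under about 10 counts are limited by depth, and no independent culture tests the unstimulated HZ libraries.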
